A study of Rattus norvegicus with 16 samples.

Results

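The interleukin 1 family was followed here in the distal colon of rats, as 10 genes that make its ligands, its antagonist, its receptors and the protease that processes it. They are Il1a, Il1b, Il18 and Il33 for the ligands, Il1rn for the antagonist, Il1r1, Il1r2, Il1rl1 and Il1rap for the receptors, and Casp1 for the protease. Members were found by matching the transcript accession of each array probe to a RefSeq gene table, which gave 12 probes for 9 of the 10 genes, among 30367 probes and 15159 named genes in all. No probe was matched to Il1r1, the signalling receptor, and it is not analysed here. The family was chosen by its response to DSS: Il1b was known from earlier results of these data to be among the largest rises, so its DSS differences are given below as a description, with no test. The other members were taken because they belong to the same family, and they are tested in the fit across all probes. They too were listed with earlier results of these data known.

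The material was normal distal colon of 16 male rats in 4 groups of 4, and its RNA was labelled with a single dye, Cy3, for Agilent arrays. All rats were of the (ACIxF344)F1-Pirc stock and were 97 days old. They were either Pirc/+, which means heterozygous for the Pirc allele of the tumor suppressor gene Apc that predisposes rats to colonic adenomas, or wildtype. In each genotype, 4 rats drank untreated water and 4 drank water with 4% dextran sodium sulfate (DSS), a polymer that injures the colonic mucosa, from day 40 to day 47 and again from day 54 to day 61, so that 36 days lay between the last DSS and sampling. Pirc acts in every cell of the animal rather than in a chosen cell type. The methods of the study describe normal epithelium as scraped from the lumen, a way of sampling that does not separate cell types, and the labels give the tissue only as normal distal colon.

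Interleukin 1 alpha and interleukin 1 beta bind the same receptor, which signals only once it has joined the accessory protein encoded by Il1rap. The product of Il1rn occupies that receptor without signalling, and the product of Il1r2 is a decoy that binds the ligands but lacks a signalling domain. The cytokines encoded by Il33 and Il18 are alarm signals held ready in epithelia and other barrier cells, and the first of them is sensed by the receptor encoded by Il1rl1, known as ST2. Caspase 1, assembled into inflammasomes, cleaves the precursors of interleukin 1 beta and of the Il18 product.

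In the RefSeq table of the GRCr8 rat assembly, Il1a and Il1b lie side by side on chromosome 3 with no protein-coding gene between them, and Il1rn lies on the same chromosome but not next to them. Il1r1, Il1rl2, Il1rl1, Il18r1 and Il18rap follow each other in that order on chromosome 9, where Il1r2 lies near Il1r1. RefSeq promoters were found for 9 of the 10 members, in 11 windows, and Il1r2 has no entry. The 250 bases before the start are shown for the 4 members of the DSS response that have an entry, 5′ to 3′ on the strand of the gene, with matches to the motifs searched in capitals. In GRCr8 they are chr3:136990018-136990267 on the minus strand for Il1a, chr3:137036582-137036831 on the minus strand for Il1b, chr3:27520072-27520321 on the plus strand for Il1rn and chr9:50203388-50203637 on the plus strand for Il1rl1.
Il1a: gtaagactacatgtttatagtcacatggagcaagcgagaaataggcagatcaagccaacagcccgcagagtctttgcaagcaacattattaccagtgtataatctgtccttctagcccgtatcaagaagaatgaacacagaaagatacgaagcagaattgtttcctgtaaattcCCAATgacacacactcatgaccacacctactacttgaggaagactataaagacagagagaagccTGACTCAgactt
Il1b: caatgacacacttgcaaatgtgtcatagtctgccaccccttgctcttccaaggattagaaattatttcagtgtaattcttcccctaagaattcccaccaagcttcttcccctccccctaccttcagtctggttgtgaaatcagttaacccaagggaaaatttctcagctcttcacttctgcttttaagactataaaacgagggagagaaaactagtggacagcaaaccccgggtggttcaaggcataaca
Il1rn: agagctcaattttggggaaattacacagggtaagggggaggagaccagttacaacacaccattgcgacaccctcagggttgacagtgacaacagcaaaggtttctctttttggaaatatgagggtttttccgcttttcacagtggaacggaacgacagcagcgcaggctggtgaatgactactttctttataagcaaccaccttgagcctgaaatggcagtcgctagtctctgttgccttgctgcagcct
Il1rl1: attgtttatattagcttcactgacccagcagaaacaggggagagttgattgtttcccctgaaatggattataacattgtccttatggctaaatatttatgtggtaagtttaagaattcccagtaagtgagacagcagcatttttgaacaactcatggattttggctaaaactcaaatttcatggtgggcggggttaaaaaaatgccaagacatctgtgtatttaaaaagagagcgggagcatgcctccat
The motifs were the NF-kappaB consensus, TGANTCA for AP-1 and CCAAT, read on both strands, and no match overlapped another. The Il1a window holds a TGANTCA match that begins 12 bases before the start and a CCAAT match that begins 76 bases before it. The windows of Il1b, Il1rn and Il1rl1 hold no match to these letters. Among all 33465 promoters of the table, 4.23% hold the NF-kappaB consensus, 6.34% hold TGANTCA and 34.0% hold CCAAT in the same window. Among the other members, the NF-kappaB consensus was found only in both overlapping windows of Il1rap, and CCAAT in those windows and in windows of Il1r1 and Il33.

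Transcript levels below are the log2 of the signal of a probe relative to the 75th percentile of its array, so that 0 is a signal at that percentile, and rats are named by their number. A gene with several probes is represented by the brightest, called here its lead probe, and levels are never compared between probes as amounts. A difference was called where limma gave a Benjamini-Hochberg adjusted p of at most 0.05 over all 30367 probes and the change was at least a factor of 2. The arrays lay on 2 slides, with 2 rats of each group on each (rats 11 to 18 on slide 1 and rats 19 to 26 on slide 2). Since the arrays of a group all stood in the same column of their slides, group and column cannot be told apart. On each array 71.11% to 80.32% of spots exceeded background by the scanner software's criterion (called well above background here), and the number of arrays limits the precision of every value. In the wildtype groups, 2 libraries stood apart in markers of smooth muscle: the mean of that list, with each gene centred over the rats, was 2.42 in untreated rat 25 against -0.88 to -0.37 in the other untreated wildtype rats, and 3.07 in DSS-treated rat 26 against -0.62 to 0.32 in the other DSS-treated wildtype rats. Results that change without these rats are given both ways.

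DSS enhanced 4 of the 8 measured members other than Il1b over both genotypes, and diminished none by a factor of 2. They were the ligand Il1a, the antagonist Il1rn and the receptors Il1r2 and Il1rl1. Among all named genes, 6.34% were called higher and 1.21% lower in this comparison. In Pirc rats alone, the same 4 members were called, beside 6.93% of all named genes called higher. In wildtype rats alone, 3 members were called, with Il1rn left out, beside 3.17% of all named genes called higher. Since the family was drawn up with the DSS response known, these shares describe it and are not read as evidence about it. Il18, Il33, Il1rap and Casp1 did not change by a factor of 2 over both genotypes.

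**Figure D1:**
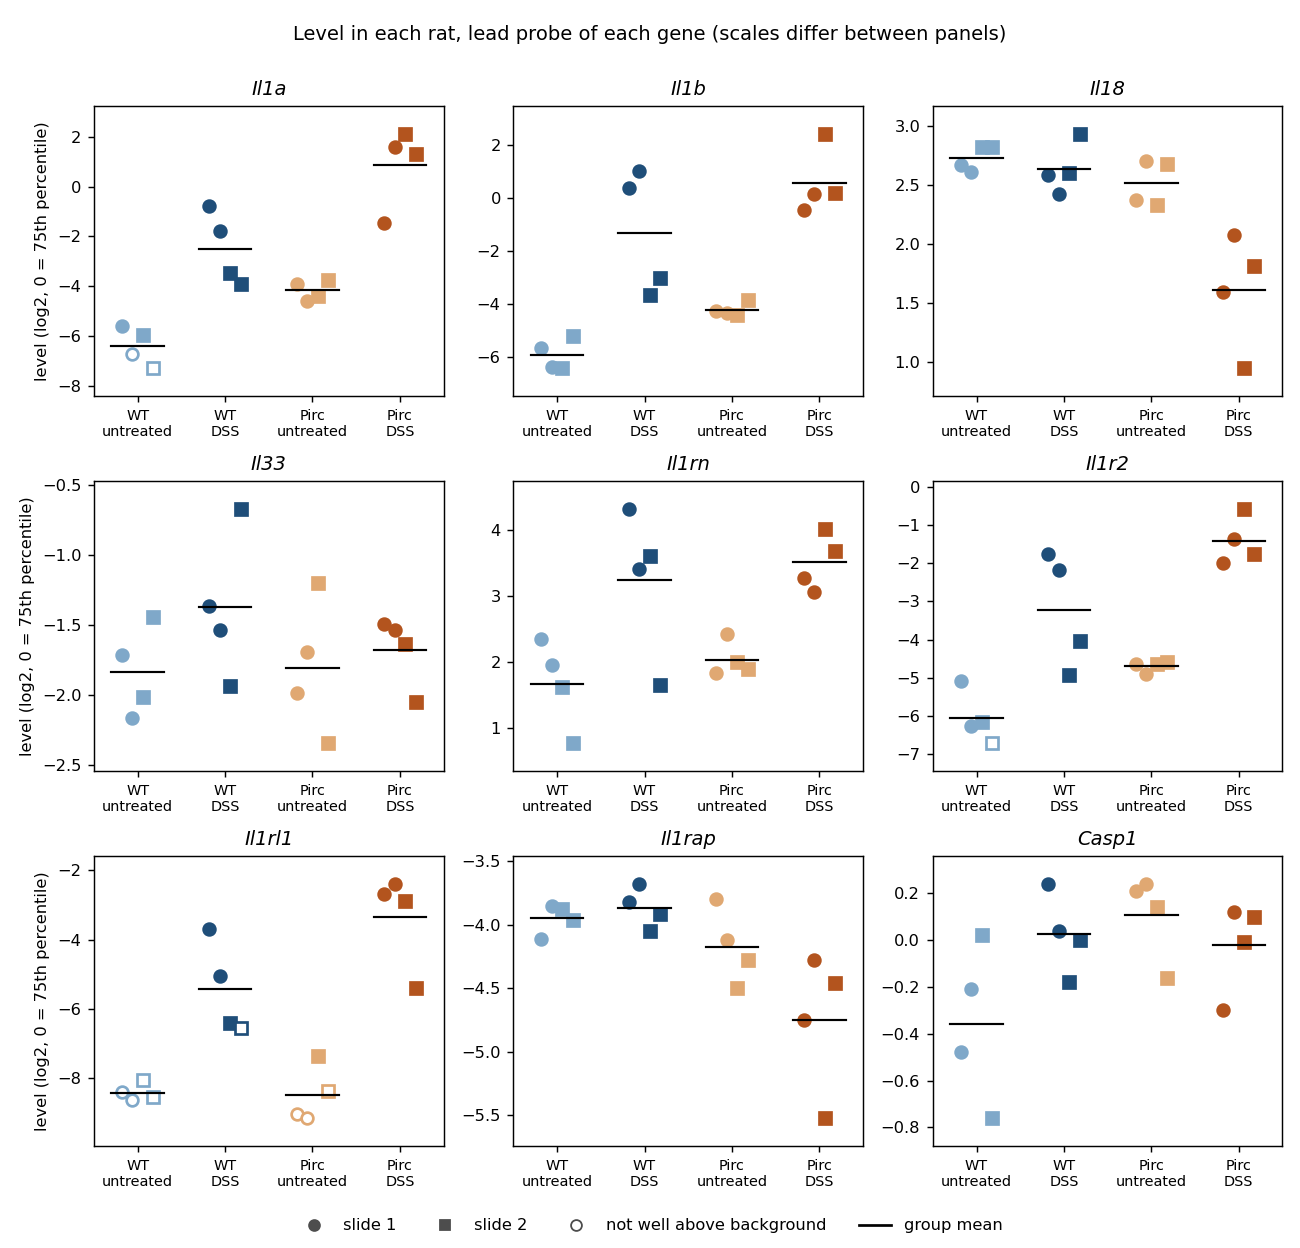
Level of the lead probe of each gene in each rat, as log2 relative to the 75th percentile of the array, in the 4 groups (WT, wildtype). Circles are slide 1 and squares slide 2, open symbols were not well above background, and bars are means of 4 rats. In DSS-treated rats the levels of Il1a, Il1b, Il1r2 and Il1rl1 lie above those of the untreated rats of the same genotype, while Il18 is lowest in DSS-treated Pirc rats.

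Il1b gave a low signal in untreated colon and a higher signal after DSS. Its level was -5.67, -6.37, -6.41 and -5.19 in untreated wildtype rats 13, 17, 21 and 25, and 0.37, 1.02, -3.64 and -3.03 in DSS-treated wildtype rats 14, 18, 22 and 26. In Pirc rats it was -4.26, -4.34, -4.42 and -3.86 in the untreated animals 11, 15, 19 and 23, and -0.45, 0.16, 2.41 and 0.19 in the DSS-treated animals 12, 16, 20 and 24. All 8 DSS-treated rats lay above all 8 untreated rats, and the widest spread was in DSS-treated wildtype rats, where rats 14 and 18 stood well above rats 22 and 26. The difference between DSS-treated and untreated rats was 4.69 on the log2 scale over both genotypes (SE 0.63), a factor of 25.9, with 4.59 in wildtype and 4.80 in Pirc rats (SE 0.89 each).

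The Pirc allele was not accompanied by a called difference in Il1b. The Pirc rats lay above the wildtype rats by 1.79 over both treatments (SE 0.63, limma adjusted p = 0.0621), by 1.69 in untreated rats (adjusted p = 0.548) and by 1.90 after DSS (adjusted p = 0.159). The 4 untreated Pirc rats all lay above the 4 untreated wildtype rats, whereas the groups overlapped after DSS. This comparison depended on rats 14 and 18 and on the dim probes. Without rat 14 the difference over both treatments was 2.08 (adjusted p = 0.0385), and without rat 18 it was 2.18 (adjusted p = 0.0202). With dim probes filtered out before the fit it passed at 1.79 (adjusted p = 0.0395). After DSS the Pirc difference was 2.68 without rat 18 (adjusted p = 0.0447). The DSS difference in Pirc rats exceeded that in wildtype rats by 0.21, with a 95% interval from -2.47 to 2.88 (adjusted p = 0.968).

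Il1a, the other agonist of the interleukin 1 receptor, responded to both DSS and genotype. Its level was -5.60, -6.75, -5.95 and -7.30 in untreated wildtype rats 13, 17, 21 and 25, of which 17 and 25 were not well above background, and -0.79, -1.79, -3.46 and -3.93 in DSS-treated wildtype rats 14, 18, 22 and 26. In Pirc rats it was -3.90, -4.58, -4.40 and -3.77 without DSS (rats 11, 15, 19 and 23) and -1.46, 1.61, 2.12 and 1.3 with it (rats 12, 16, 20 and 24). The DSS-treated and untreated rats did not overlap within either genotype, and rat 12 was the lowest of the DSS-treated Pirc rats. DSS enhanced Il1a by 4.48 over both genotypes (SE 0.53, adjusted p = 6.72e-05), a factor of 22.3, by 5.06 in Pirc rats (SE 0.76, adjusted p = 0.000572) and by 3.91 in wildtype rats (SE 0.76, adjusted p = 0.0114). Background correction by normexp took the wildtype difference to 2.05 (adjusted p = 0.0972).

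Il1a was higher in Pirc than in wildtype rats by 2.81 over both treatments (SE 0.53, adjusted p = 0.00385), a factor of 7.02. After DSS the difference was 3.39 (SE 0.76, adjusted p = 0.00813), a factor of 10.5, and 3 of the 4 DSS-treated Pirc rats lay above every DSS-treated wildtype rat. With only the DSS-treated rats in the fit, its adjusted p was 0.0600, and without rats 25 and 26 the difference was 2.91 (adjusted p = 0.0243). In untreated rats the Pirc group lay above the wildtype group by 2.23 without overlap, and this did not pass (adjusted p = 0.326). The second Il1a probe gave a DSS difference of 4.07 over both genotypes (adjusted p = 8.32e-05) and a Pirc difference of 3.42 after DSS (adjusted p = 0.00578). On that probe no untreated wildtype rat was well above background. Its fitted DSS difference in wildtype rats was 3.28 (adjusted p = 0.0191). With dim signals raised to the lowest well above background, its mean was at least 4.46-fold higher in DSS-treated wildtype rats. The corresponding bound for untreated Pirc rats was 1.64-fold, and the fitted difference of 1.84 did not pass (adjusted p = 0.378). Such bounds concern the group means and not their sampling error. An adjusted p beside a bound, here and below, is that of the fitted difference and does not test the bound.

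Il18 and Il33, the ligands stored in barrier cells, did not follow the interleukin 1 genes. The Il18 level was 2.67, 2.61, 2.82 and 2.82 in untreated and 2.58, 2.42, 2.60 and 2.93 in DSS-treated wildtype rats. In Pirc rats it was 2.37, 2.70, 2.33 and 2.68 without DSS, and 1.59, 2.08, 0.95 and 1.81 in DSS-treated rats 12, 16, 20 and 24. Every DSS-treated Pirc rat lay below all other rats, with rat 20 the lowest, while the other 3 groups overlapped. Il18 was diminished in DSS-treated Pirc rats against DSS-treated wildtype rats by a log2 difference of -1.03 (SE 0.20, adjusted p = 0.00468), a factor of 2.04 and just past the limit of 2. This stayed within a log2 difference of -1.18 to -0.81 with any rat left out, and fell short of a factor of 2 without rat 20 (-0.81, adjusted p = 0.0104), without rat 26 (-0.93, adjusted p = 0.0120), with quantile normalization (-0.99, adjusted p = 0.00348) and without both rats 25 and 26 (-0.93, adjusted p = 0.0162).

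Against untreated Pirc rats, the Il18 level in DSS-treated Pirc rats differed by -0.92 (SE 0.20, adjusted p = 0.0074), below a factor of 2, and with only Pirc rats in the fit its adjusted p was 0.0597. In wildtype rats the DSS difference was -0.10 (adjusted p = 0.853). Averaged over both genotypes it was -0.51 (adjusted p = 0.0231), and without rat 15 or rat 18 its adjusted p was 0.0520 or 0.0527. The difference between the genotypes in the DSS response was -0.82, with a 95% interval from -1.43 to -0.21 and an adjusted p of 0.333. Il33 varied as much within groups as between them, from -2.34 to -0.67 over all rats, with a DSS difference of 0.29 (adjusted p = 0.382) and a 95% interval from -0.13 to 0.71. Its Pirc difference after DSS was -0.30 (adjusted p = 0.480).

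Il1rn, whose product competes with both agonists for the receptor, was well above background on all 16 arrays and rose with DSS by less than the agonists did. Its level was 2.35, 1.95, 1.63 and 0.78 in untreated wildtype rats 13, 17, 21 and 25, and 4.31, 3.4, 3.6 and 1.65 in DSS-treated wildtype rats 14, 18, 22 and 26. In Pirc rats it was 1.83, 2.43, 2.0 and 1.9 without DSS and 3.27, 3.06, 4.01 and 3.68 with it. The Pirc groups did not overlap, whereas rat 26 lay among the untreated wildtype rats. DSS enhanced Il1rn by 1.51 over both genotypes (SE 0.32, adjusted p = 0.00468), a factor of 2.86, by 1.47 in Pirc rats (adjusted p = 0.0453) and by 1.56 in wildtype rats, where it did not pass (adjusted p = 0.077). Without rat 26 the wildtype difference was 2.09 (adjusted p = 0.00363), and without rats 25 and 26 it was 1.79 (adjusted p = 0.00608). With dim probes filtered out before the fit it also passed, at 1.56 (adjusted p = 0.0486).

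The Il1rn call in Pirc rats was marginal: it remained when the rat left out was 13, 14, 16, 25 or 26, and without any other rat the adjusted p was 0.0531 to 0.134. Genotype made little difference, with 0.32 over both treatments (adjusted p = 0.532) and 0.27 after DSS, where the 95% interval ran from -0.72 to 1.25 (adjusted p = 0.722). Without rats 25 and 26 these values were -0.1 and -0.26 (adjusted p = 0.768 and 0.557).

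The distance between the antagonist and the agonists on the same array narrowed after DSS. The value of Il1rn minus Il1b was 8.02, 8.32, 8.03 and 5.97 in untreated wildtype rats 13, 17, 21 and 25, and 3.94, 2.38, 7.25 and 4.67 in DSS-treated wildtype rats 14, 18, 22 and 26. In untreated Pirc rats it ranged from 5.76 to 6.76, and in DSS-treated Pirc rats from 1.60 to 3.72. Rat 22 overlapped the untreated wildtype rats, and no DSS-treated Pirc rat overlapped an untreated one. For Il1rn minus Il1a the ranges were 7.58 to 8.70 in untreated and 5.10 to 7.06 in DSS-treated wildtype rats, and 5.67 to 7.01 in untreated and 1.45 to 4.73 in DSS-treated Pirc rats, without overlap in either genotype. These differences show that the probes changed unequally and say nothing of the ratio of the transcripts in moles. They include the Il1b response that chose the family and have no test.

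**Figure D2:**
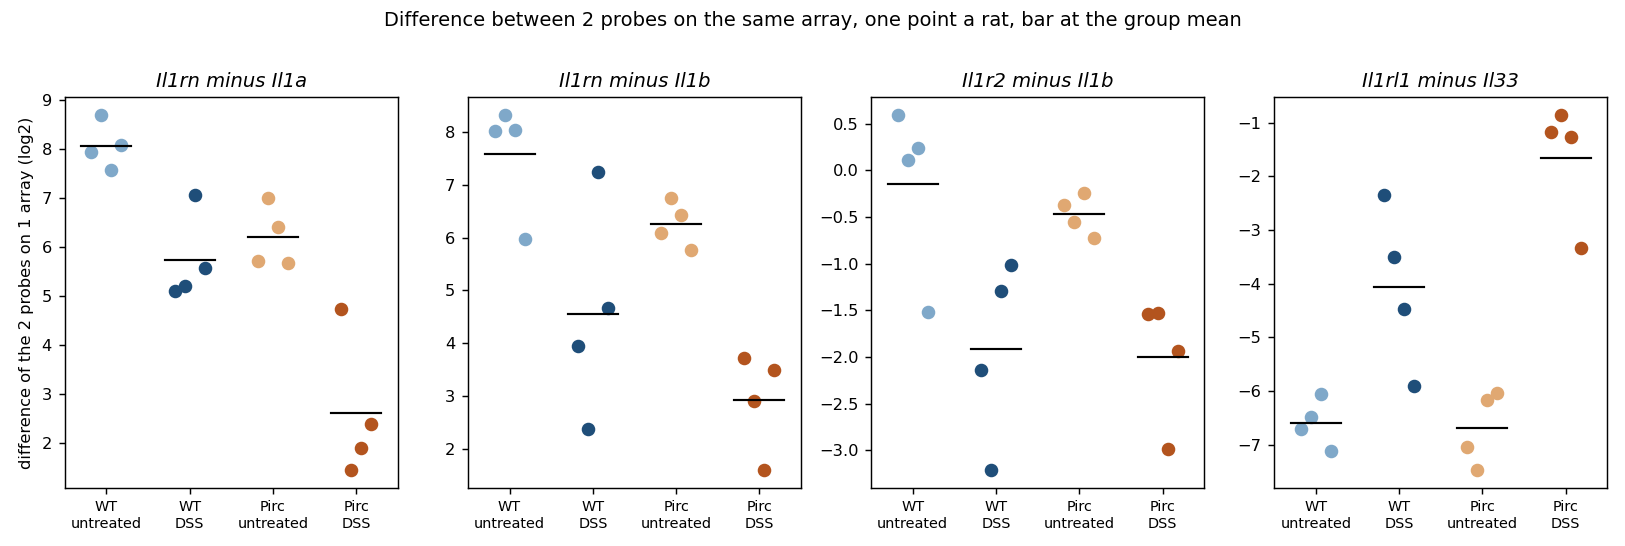
Difference in log2 level between 2 probes on the same array, with a point for each rat and a bar at the mean of each group of 4. The antagonist Il1rn lies closer to Il1a and Il1b, the decoy receptor Il1r2 lies further below Il1b, and Il1rl1 lies closer to its ligand Il33 in most DSS-treated rats than in untreated rats of the same genotype.

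Il1r2, which encodes the decoy receptor, rose with DSS in both genotypes and was higher in Pirc rats. Its level was -5.08, -6.26, -6.17 and -6.71 in untreated wildtype rats 13, 17, 21 and 25, of which rat 25 was not well above background, and -1.77, -2.19, -4.93 and -4.04 in DSS-treated wildtype rats 14, 18, 22 and 26. In Pirc rats it lay between -4.89 and -4.59 without DSS, and was -1.99, -1.36, -0.58 and -1.76 in DSS-treated rats 12, 16, 20 and 24. The DSS-treated groups did not overlap the untreated groups of their genotype, and rats 22 and 26 came closest. DSS enhanced Il1r2 by 3.04 over both genotypes (SE 0.41, adjusted p = 0.00015), a factor of 8.24, by 3.27 in Pirc rats (SE 0.57, adjusted p = 0.00171) and by 2.82 in wildtype rats (SE 0.57, adjusted p = 0.0145). The wildtype call was lost without rat 14 (2.33, adjusted p = 0.053), without rat 18 (2.47, adjusted p = 0.0559), with normexp (1.44, adjusted p = 0.0603) and with only the wildtype rats in the fit (adjusted p = 0.0883).

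Il1r2 was higher in Pirc than in wildtype rats by 1.59 over both treatments (SE 0.41, adjusted p = 0.016), a factor of 3.01. After DSS the difference was 1.81 (SE 0.57, adjusted p = 0.0412), and it remained called when the rat left out was 13, 14, 18, 23 or 25. Without any other rat its adjusted p was 0.0509 to 0.131, and with only the DSS-treated rats in the fit it was 0.143. The normexp correction took the difference over both treatments to 0.78, below a factor of 2 (adjusted p = 0.0493). Without rats 25 and 26 neither difference passed, at 1.34 over both treatments (adjusted p = 0.0523) and 1.54 after DSS (adjusted p = 0.11). The value of Il1r2 minus Il1b on the same array ranged from -1.52 to 0.59 in untreated and from -3.21 to -1.02 in DSS-treated wildtype rats, and from -0.73 to -0.24 in untreated and from -2.99 to -1.53 in DSS-treated Pirc rats. As these values include the Il1b response that chose the family, they have no test.

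Il1rl1, the receptor for the Il33 product, was at background in untreated colon on its lead probe. None of the 4 untreated wildtype rats and 1 of the 4 untreated Pirc rats (rat 19, -7.37) was well above background, and the untreated levels lay between -9.16 and -7.37. After DSS the level was -3.70, -5.04, -6.41 and -6.57 in wildtype rats 14, 18, 22 and 26, of which rat 26 was not well above background, and -2.67, -2.39, -2.89 and -5.39 in Pirc rats 12, 16, 20 and 24. All 8 DSS-treated rats lay above all 8 untreated rats. DSS enhanced Il1rl1 by 4.07 over both genotypes (SE 0.48, adjusted p = 6.58e-05) and by 5.15 in Pirc rats (SE 0.68, adjusted p = 0.000276), as fitted to values largely at background in the untreated rats, and the signal of DSS-treated wildtype rats was at least 2.80-fold that of untreated ones (adjusted p = 0.0257).

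The size of these Il1rl1 differences depended on how values near background were treated. The difference over both genotypes was 1.92 with a common floor for dim probes (adjusted p = 0.0111) and 1.3 with normexp (adjusted p = 0.00125). In wildtype rats the call was lost under these settings (adjusted p = 0.576 and 0.424), and also without rat 13, 14, 17, 18, 21 or 25 (adjusted p = 0.0533 to 0.0908). After DSS, Pirc rats lay above wildtype rats by 2.10 (SE 0.68, adjusted p = 0.0464), a difference that stayed called only without rat 14, 19 or 24 and otherwise had an adjusted p of 0.0537 to 0.126 with a rat left out. This difference was also lost with normexp (0.86, adjusted p = 0.101), with both probes of the gene averaged (1.32, adjusted p = 0.0734), with only the DSS-treated rats in the fit (adjusted p = 0.15), without moderation (adjusted p = 0.0713) and without rats 25 and 26 (1.72, adjusted p = 0.139). Over both treatments the Pirc difference of 1.02 did not pass (adjusted p = 0.168), and without rat 24 it was 1.36 (adjusted p = 0.0301). The array carries a second Il1rl1 probe, for another transcript in the array annotation, which was well above background on 4 of 16 arrays and showed no DSS difference (-0.07, adjusted p = 0.931). Which of the membrane-bound and soluble receptor forms each probe reads is not given in the sources used here.

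Il1rap, the accessory chain shared by these receptors, did not change by a factor of 2 in any comparison. The lead probe lay between -4.11 and -3.68 in the wildtype rats, between -4.50 and -3.80 in untreated Pirc rats, and at -4.75, -4.28, -5.52 and -4.46 in DSS-treated Pirc rats 12, 16, 20 and 24. All 4 DSS-treated Pirc rats were below all 8 wildtype rats, and they overlapped the untreated Pirc rats. Its Pirc difference was -0.55 over both treatments (SE 0.16, adjusted p = 0.0278) and -0.88 after DSS (SE 0.23, adjusted p = 0.0158). The first of these did not pass without rat 17, 18, 19 or 21 (adjusted p = 0.0544 to 0.0575) or without both rats 25 and 26 (adjusted p = 0.0545). With both probes of the gene averaged neither passed, at -0.14 and -0.41 (adjusted p = 0.562 and 0.222). With only the DSS-treated rats in the fit, the difference after DSS had an adjusted p of 0.0808. The second Il1rap probe, well above background on 4 of 16 arrays, gave 0.27 over both treatments (adjusted p = 0.529) and 0.07 after DSS (adjusted p = 0.926). Casp1 lay between -0.76 and 0.24 in all 16 rats. Its DSS difference was 0.13 with a 95% interval from -0.13 to 0.38 (adjusted p = 0.582), and its Pirc difference in untreated rats, 0.47, did not pass (adjusted p = 0.358). The DSS difference of Casp1 in Pirc rats less that in wildtype rats was -0.51 (adjusted p = 0.472).

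**Figure D3:**
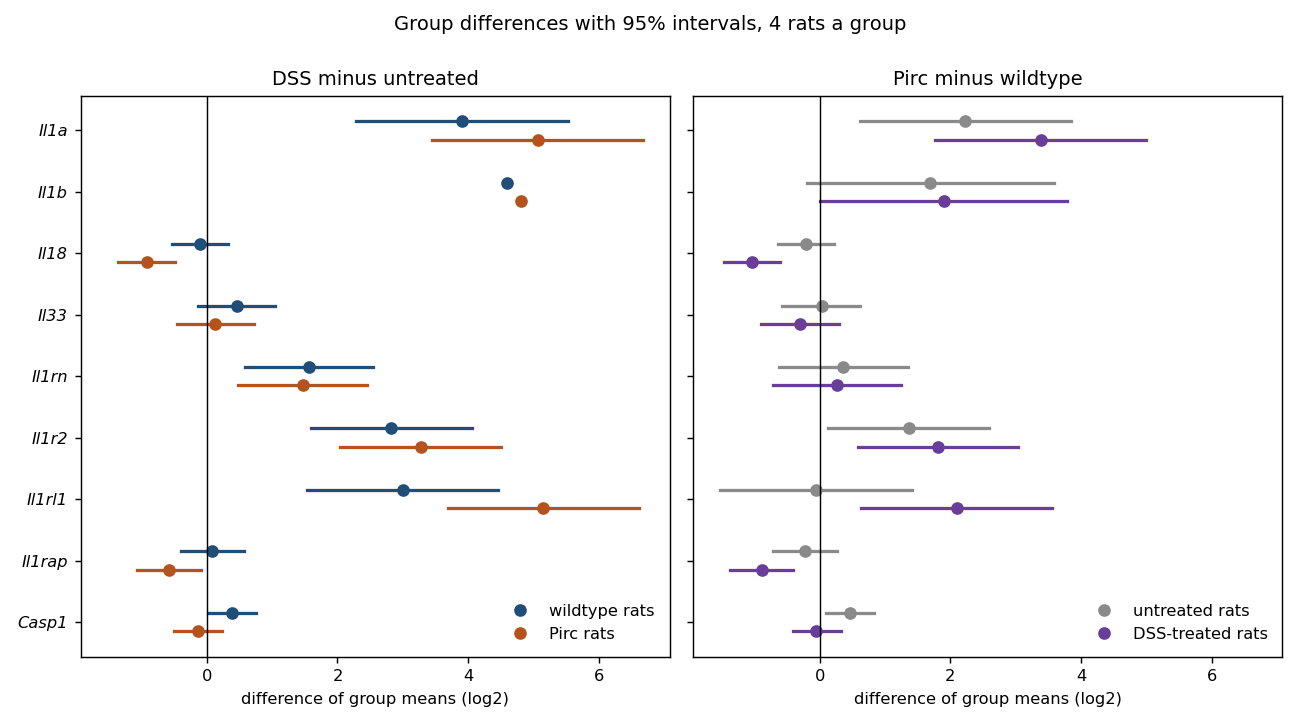
Differences between group means on the log2 scale with unadjusted 95% intervals from limma, for the lead probe of each gene and 4 rats a group. The left panel shows DSS-treated minus untreated rats in each genotype, the right panel Pirc minus wildtype rats in each treatment. The DSS differences of Il1b are points without an interval, because they chose the family, and Il1rl1 is drawn at its fitted values although it was at background in untreated wildtype rats. For DSS the intervals of Il1a, Il1rn, Il1r2 and Il1rl1 lie to the right of 0 in both genotypes, and for Pirc after DSS those of Il1a, Il1r2 and Il1rl1 lie above 0, that of Il1b ends at 0, and those of Il18 and Il1rap lie below it.

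Across the family, genotype was accompanied by called differences mainly after DSS, though the change in the DSS response itself was not called for any member. Over both treatments 2 of the 9 measured members, Il1a and Il1r2, were called higher in Pirc rats, beside 1.47% of all named genes. In DSS-treated rats Il1a, Il1r2 and Il1rl1 were called higher and Il18 lower, beside 3.59% of all named genes called higher and 2.77% lower. In untreated rats limma called 0 of 9 members, and 3 had an unadjusted p below 0.05 (Il1a, Il1r2 and Casp1), beside 0% of all named genes called. For the difference in DSS response between genotypes it called 0 of 9 members, and 2 had an unadjusted p below 0.05 (Il18 and Il1rl1), beside 0.0594% of all named genes called. An effect called after DSS and not without it is therefore not shown to differ between these conditions.

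The slides bear on the same comparison, because rats 14 and 18 lay on slide 1 and rats 22 and 26 on slide 2. The DSS difference of Il1b in wildtype rats was 6.72 on slide 1 and 2.47 on slide 2, and in Pirc rats it was 4.15 and 5.44. After DSS, the Pirc minus wildtype difference of Il1b was -0.84 on slide 1 and 4.63 on slide 2, so its sign differed between slides. For Il1a this difference was 1.37 and 5.41, for Il1r2 it was 0.30 and 3.32, for Il1rl1 it was 1.84 and 2.35, and for Il18 it was -0.67 and -1.39. Those of Il1rn were -0.69 and 1.22. The DSS differences of Il1a, Il1b, Il1rn, Il1r2 and Il1rl1 were above 0 on both slides in both genotypes, and each slide gave them from 2 rats a group. With slide as a block, limma called the same number of members in each comparison.

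Markers of several immune and stromal cell types moved with the DSS differences, and in this bulk tissue more cells of a type and more RNA per cell cannot be told apart. Over both genotypes, where 6.34% of all named genes were called higher and 1.21% lower, DSS enhanced 4 of 9 neutrophil markers, among them S100a8 (3.57) and S100a9 (3.0), while Elane, which defines the granules of their precursors, was at background on every array. It enhanced 5 of 10 monocyte and macrophage markers, led by Lyz2 (2.97), and 2 of 7 mast cell markers, among them Mcpt1 (3.24). All 6 fibroblast markers and 3 of 4 endothelial markers rose, and so did 5 of 8 markers of stratified epithelium and urothelium. Among the 5 was Krt13, a keratin of stratified epithelia that simple colonic epithelium lacks. It was at background in untreated wildtype rats and above background in 3 of the 4 DSS-treated ones, whose mean was at least 47.6-fold higher (adjusted p = 0.0335). The uroplakin genes Upk1b, Upk2 and Upk3a were not called over both genotypes, and Upk2 was at background on every array. In wildtype rats alone, DSS enhanced 1 of the 8 stratified and urothelial markers, beside 3.17% of all named genes. In Pirc rats alone it enhanced 7 of the 8, beside 6.93% of all named genes. These included Upk1b (mean -3.66 without and -2.54 with DSS) and Upk3a (-3.97 and -2.39), but not Upk2. Of 7 T cell markers 1 rose, and of 6 smooth muscle markers 1 rose and 1 fell, the latter being the intermediate filament gene Des (-1.49, adjusted p = 0.00349). All 9 markers of colonic epithelium were well above background on all 16 arrays. None of these 9 was called for DSS over both genotypes or in wildtype rats, and in Pirc rats 1 was called lower, the anion exchanger gene Slc26a3 (-1.72, adjusted p = 0.00268).

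The mean level of the monocyte and macrophage list, with each gene centred on its mean over the rats, ranged from -0.85 to -0.48 in untreated and from -0.1 to 1.0 in DSS-treated wildtype rats, and from -0.47 to -0.30 in untreated and from 0.65 to 1.04 in DSS-treated Pirc rats. For the neutrophil list these ranges were -1.02 to -0.65, -0.32 to 0.62, -0.90 to -0.43 and 0.26 to 1.87, and for the stratified list -1.81 to -1.50, -1.63 to 2.60, -1.85 to -1.27 and 1.64 to 3.46. For the fibroblast list they were -1.41 to -0.82, -0.48 to 2.24, -1.44 to -0.59 and 0.96 to 2.26, and for the endothelial list -0.59 to -0.06, -0.17 to 0.73, -0.91 to 0.06 and 0.45 to 0.80. The mast cell list ranged from -0.94 to -0.50, 0.11 to 0.63, -0.41 to -0.21 and 0.30 to 0.82, and the T cell list from -0.51 to 0.10, -0.35 to 0.96, -0.53 to 0.36 and -0.07 to 0.37, with rat 26 the highest of all. Smooth muscle markers, high in rats 25 and 26 as given above, ranged from -1.10 to -0.52 in untreated and from -0.76 to 1.59 in DSS-treated Pirc rats, with rat 16 the highest of the Pirc rats. Rats 14 and 18 stood above rats 22 and 26 in the monocyte, neutrophil, mast cell, fibroblast and endothelial lists as they did for Il1b. In the T cell, colonic epithelium and smooth muscle lists they did not. In the stratified list rat 22 was the highest of the 4 and rat 26 the lowest. The part of these cells in the member differences was not tested. After DSS, where 3.59% of all named genes were called higher and 2.77% lower in Pirc than in wildtype rats, the calls were higher for 2 of 9 neutrophil, 1 of 10 monocyte and macrophage and 3 of 8 stratified markers, and lower for 1 of 9 markers of colonic epithelium, again Slc26a3 (-2.25, adjusted p = 0.000932), with none among mast cell, T cell, fibroblast, endothelial and smooth muscle markers. The colonic epithelium list ranged from 0.13 to 0.37 in DSS-treated wildtype and from -0.71 to 0.15 in DSS-treated Pirc rats, with its lowest value in rat 20, the rat lowest in Il18, and its part in the Il18 difference was not tested.

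Around the members, 71 of 80 listed genes of the pathway were measured, and DSS enhanced 16 of them over both genotypes and diminished 0, beside 6.34% of all named genes called higher and 1.21% lower. Most of these belonged to the transcripts known to be induced by interleukin 1, of which 10 of 20 rose, with a median difference of 1.16 against 0.05 over all named genes. Among its chemokine genes, Cxcl2 differed by 6.66 (SE 0.82, adjusted p = 8.75e-05), Cxcl1 by 5.50 (SE 0.50, adjusted p = 1.36e-05), Cxcl6 by 4.18 (SE 0.51, adjusted p = 7.44e-05) and Ccl2, which attracts monocytes, by 3.73 (SE 0.45, adjusted p = 7.36e-05), whereas Ccl20 differed by 0.38 and did not pass (adjusted p = 0.395). Cxcl1, Cxcl2 and Cxcl6, which attract neutrophils, were at background in all untreated wildtype rats. In DSS-treated wildtype rats their signals were at least 10.9-fold, 29.5-fold and 2.34-fold higher (adjusted p = 0.00218, 0.00675 and 0.0462), with Cxcl6 above background in 3 of these rats. Of the 20 transcripts of this list, 8 were above background on all 16 arrays, so the median of 1.16 includes fitted values at background. The part of interleukin 1 in the rise of this list was not tested. Il6 and Sele were at background on every array.

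The other lists changed less under DSS. Among the remaining ligands, receptors and binding proteins of the family, 2 of 11 rose (median 0.26), and both encode interleukin 36 cytokines, which are best known from stratified epithelia. Each was above background on 6 of 16 arrays. Il36b was at background in all untreated rats, and its signal after DSS was at least 7.36-fold higher in Pirc rats (adjusted p = 0.00147). In wildtype rats its mean was at least 2.11-fold higher (adjusted p = 0.0472), with 2 of the 4 DSS-treated rats above background. Il36g was above background in 1 untreated rat, a Pirc rat, and differed by 4.03 in Pirc rats (adjusted p = 0.00295), while in wildtype rats it was at least 1.27-fold higher and did not pass (adjusted p = 0.157). Of 16 genes of receptor-proximal signalling, 2 rose (median -0.06): Irak3, which encodes an inhibitor of receptor signalling, by 1.97 (adjusted p = 1.36e-05), and the kinase gene Map3k8 by 1.10 (adjusted p = 0.0029). Of 15 inflammasome and processing genes (median 0.12) 1 was called, the inflammasome sensor gene Nlrp3, but it was above background on 1 array only, and the signal supports no more than an at least 1.01-fold rise in Pirc rats (adjusted p = 0.0183) and no fold in wildtype rats. Of 9 transcripts downstream of the Il33 and Il18 products, 1 rose (median 0.16), namely Gata3, which was above background on 4 arrays, all of DSS-treated rats, and at least 2.0-fold higher after DSS in Pirc rats (adjusted p = 0.000822). No cytokine gene of this list was called. Il4, Il5, Il9 and Ifng were at background on every array, and Il13 was above background on every array.

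**Figure D4:**
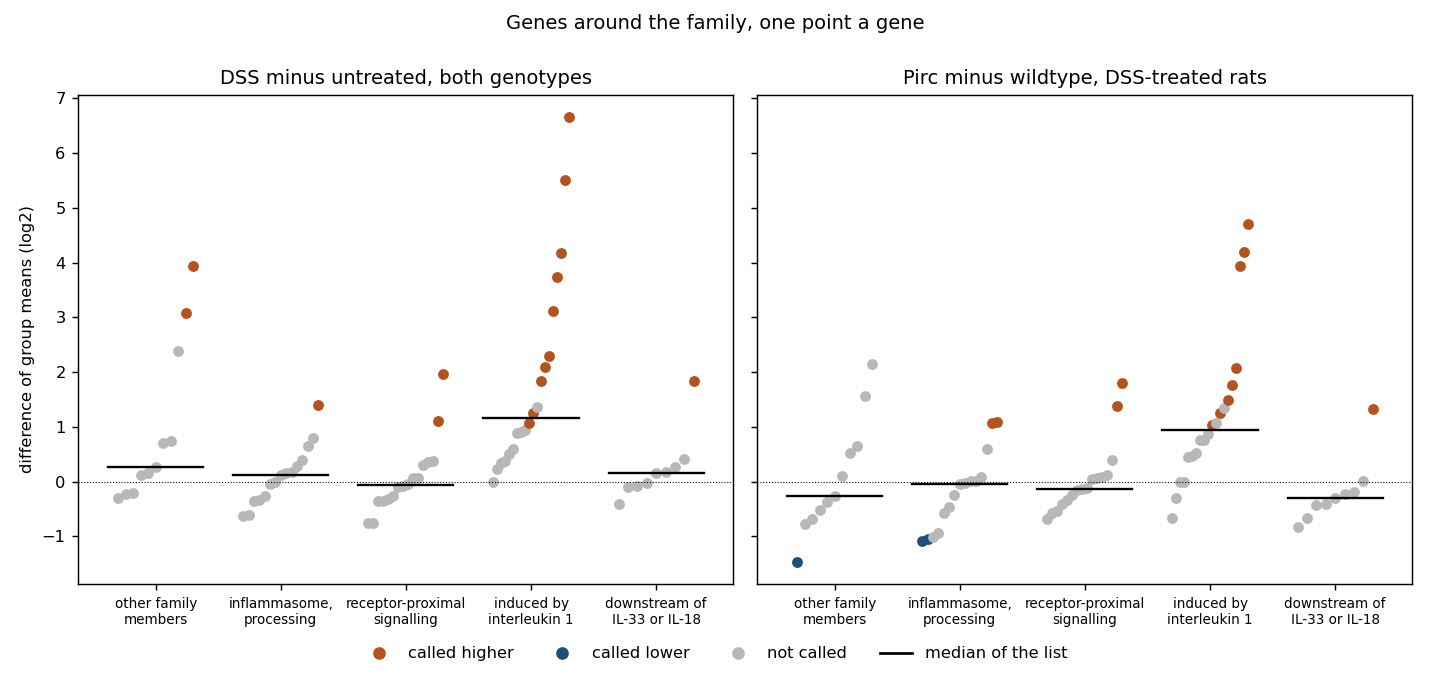
Differences on the log2 scale for the measured genes of 5 lists around the family, with a point for each gene at its fitted value, also where a group was at background, and a bar at the median of the list. The left panel shows DSS-treated minus untreated rats over both genotypes, the right panel Pirc minus wildtype rats after DSS. The transcripts known to be induced by interleukin 1 reach 6.66 on the left and 4.70 on the right, while the medians of the other lists lie between -0.30 and 0.26.

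In DSS-treated rats, 13 of the 71 genes were called higher and 3 lower in Pirc than in wildtype animals, beside 3.59% and 2.77% of all named genes. Of the transcripts known to be induced by interleukin 1, 8 of 20 were called higher, with a median of 0.95 against -0.10 over all named genes. They were led by Cxcl6 (4.70, SE 0.72, adjusted p = 0.0013), Cxcl2 (4.19, SE 1.17, adjusted p = 0.0231), Cxcl1 (3.93, SE 0.70, adjusted p = 0.00286) and Zc3h12a (2.07, SE 0.32, adjusted p = 0.00136), whose product degrades cytokine messages. Map3k8 (1.81, adjusted p = 0.00239) and Irak3 (1.38, adjusted p = 0.00315) were called again, as were Casp4 (1.09, adjusted p = 0.00418), a caspase that senses bacterial lipopolysaccharide, Mefv (1.07, adjusted p = 0.0326), which encodes the inflammasome sensor pyrin, and Gata3 (1.32, adjusted p = 0.021), which was above background in 1 of the 4 wildtype rats. The 3 called lower were Il18bp (-1.46, adjusted p = 0.00527), whose product neutralises the Il18 cytokine, Txnip (-1.08, adjusted p = 0.0164) and the pore-forming gasdermin gene Gsdme (-1.04, adjusted p = 0.0248). Il18 and its antagonist gene Il18bp were thus both lower in DSS-treated Pirc than in DSS-treated wildtype rats. For neither gene was the difference in DSS response between genotypes called, and the values that follow are a description. The median of Il18bp was -2.67 in untreated and -1.47 in DSS-treated wildtype rats, against -3.02 and -2.81 in Pirc rats. The DSS difference of Il18 was -0.10 in wildtype and -0.92 in Pirc rats, as given above.

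The per-rat pattern of Il1b was compared with that of 10361 other genes well above background on all 16 arrays, by the root mean square difference between log2 levels centred over the rats. The closest were Lrg1 (0.83), Sema7a (1.14), Madcam1 (1.14), Mgp (1.14) and Gsg1 (1.18), where the standard deviation of Il1b itself over the 16 rats was 2.87. This likeness is over 16 rats that share the DSS contrast and is a description with no test.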

How the data were processed

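Total RNA of 16 arrays was measured in a single dye. The authors deposited scanner output of Agilent Feature Extraction 10.7.3.1, in which the processed signal is a linear intensity with background already subtracted and no normalization between arrays. Per the labels, Partek was used by the submitters, and its values were not used here. Each deposited intensity was divided by the 75th percentile of its array and taken to log2, and replicate spots of a probe were then averaged without control spots and outlier flags. Where all spots of a probe carried the flag (25 values) they were used. Probes were named through RefSeq accessions (18006 of 30367 probes). Promoter windows and gene order are those of GRCr8, and since the array was designed on another build, no probe coordinates are given.

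The tests were made by limma 3.58.1 under R 4.3.3 (lmFit and eBayes on 16 arrays with 1 mean per group) in 7 comparisons, with Benjamini-Hochberg adjustment over all probes. The threshold of a factor of 2 and 0.05 is that of the methods of the study. Simulated arrays were used to check the fit. Named genes are the members with every probe, up to 4 called genes each way per pathway list for DSS and for Pirc after DSS, and the 5 genes most like Il1b. Members of cell type lists, uncalled genes of the pathway lists and genes with an unadjusted p below 0.05 were named after their values were seen. The members and lists were chosen with earlier results of these data known. Signal bounds use the lowest signal well above background on each array, and they bound the ratio of group means without its sampling error. The adjusted p given beside a bound belongs to the fitted difference without that floor, and the bound itself has no test. Alternatives were other scalings, normexp with an offset of 50 (on the median signal, as no mean signal is in the files), dim-probe filters and floors, blocks, single rats left out and, chosen after seeing the data, both wildtype rats high in smooth muscle markers left out.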

Additional observations from a re-analysis of the deposited data

Results flagged for a closer look

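Each group of 4 rats was checked, for the lead probe of each of the 9 measured genes, for a rat that stood far from the other 3 by Dixon's ratio at its 95% limit. Of 36 groups, 1 held such a rat, where chance would give about 1.8. It was DSS-treated Pirc rat 24, whose Il1rl1 level was -5.39, against -2.67, -2.39 and -2.89 in the other DSS-treated Pirc rats 12, 16 and 20. It remained above every untreated rat. Its levels of Il1b (0.19), Il1a (1.3) and Il1r2 (-1.76) lay within the range of the other DSS-treated Pirc rats. The reason for the low Il1rl1 level was not tested.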

How the results depend on the processing

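The DSS rises of Il1a, Il1r2, Il1rl1 and Il1rn over both genotypes kept their direction and passed the threshold under every alternative run, and 4 members were called with any rat left out. Counts that moved by over 1.5 times are given next. With normexp, 0 members were called for DSS in wildtype rats (3 otherwise) and 1 for Pirc over both treatments (2 otherwise), and 10, 13, 3, 4 and 8 pathway genes were called for DSS averaged over genotypes, for DSS in Pirc and then wildtype rats, for Pirc averaged over treatments and for Pirc after DSS (16, 20, 10, 7 and 16 otherwise). With a common floor, 12 pathway genes were called for DSS in Pirc and 5 in wildtype rats. With only the compared groups in the fit, 1 member was called for Pirc after DSS (4 otherwise), with 9 pathway genes, and 3 pathway genes for DSS in wildtype and 1 for Pirc in untreated rats. Without both rats 25 and 26, which were high in smooth muscle markers (an alternative chosen after seeing the data), 1 member was called for Pirc over both treatments and 1 for Pirc after DSS, Il1a each time. Without moderation, 2 members were called for Pirc after DSS. With no minimum change, Pirc over both treatments gave 4 members and 20 pathway genes, and DSS over both genotypes 30 pathway genes. With a rat left out, members called ranged from 3 to 5 for DSS in Pirc rats, 1 to 4 for DSS in wildtype rats (1 without rat 14 or 18), 2 to 3 for Pirc over both treatments and 1 to 4 for Pirc after DSS (1 without rat 20 or 26), and pathway genes from 15 to 17, 16 to 23, 5 to 12, 6 to 10 and 10 to 18 in the order above. Quantile normalization moved the median DSS difference of all probes from 0.06 to -0.09 and normexp to 0.15, and the share of called probes that were higher from 83.5% to 69.6% and 88.4%. The cause of these changes was not tested.

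Signs turned only for differences that were not called. For Il1rap they turned for DSS in wildtype rats with quantile normalization (-0.12) and for Pirc in untreated rats with probes averaged (0.13). For Pirc in untreated rats, Il33 gave -0.02 with quantile normalization and -0.01 with normexp, and ranged from -0.18 to 0.21 with a rat left out (below 0 at -0.18, -0.08, -0.03 and -0.01), and Il1rl1 gave 0.41 with probes averaged and ranged from -0.43 to 0.17 with a rat left out (above 0 at 0.06, 0.13 and 0.17). Also with a rat left out, signs turned for Il33 under DSS in Pirc rats (range -0.05 to 0.33), Casp1 (0.02 and 0.04) and Il1rn (range -0.26 to 0.62) for Pirc after DSS, and, for the difference in DSS response, Il1b (-0.57, -0.41, -0.36 and -0.03, range -0.57 to 0.99), Il1r2 (range -0.12 to 0.94) and Il1rn (0.02, 0.03, 0.05, 0.20 and 0.26, range -0.63 to 0.26). Without both rats 25 and 26 signs turned for Il1rn for Pirc over both treatments (-0.1) and after DSS (-0.26), for Il33 for Pirc over both treatments (0.04) and for Il1b in the difference in DSS response (-0.6). No paired analysis was possible because no rat number occurs in more than 1 group. Probes at or near background, such as both of Il1rl1 and the second of Il1rap, limit what can be read in untreated rats.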
